A study of Homo sapiens with 8 samples.

Results

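The 324 genes described here each spanned over 300 kb of the genome and carried at least 80 reads summed over the 8 lane files. They were found among 57189 rows of the count files, of which 1148 spanned over 300 kb and 11796 reached 80 summed reads. The limits on span and on summed reads selected 327 rows, and 3 of these (HERC2P7, LSP1P5 and RF00019) joined several loci under 1 name in the annotation and were set aside. The members were chosen by their summed count, so the number of reads that admitted them is no result, and the lower level of long genes in treated TIB153 was known when the set was drawn up and is given as a description. The other 821 rows over 300 kb stayed under 80 reads, 350 of them with no read at all.

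RNA was sequenced from 2 human T-cell acute lymphoblastic leukaemia lines, TIB153 and CUTLL1 (the labels write CUTTL1), given a placebo as controls or PKF118-310, a small molecule that disrupts the binding of beta-catenin to TCF/LEF factors. Each of the 4 groups held 1 library, read on 2 lanes, so neither line had a replicate, and the labels gave 1 treatment with no dose or time. Both are established lines for which the labels name no introduced allele. A library held 7609427 to 8140391 counted reads, and its 2 lanes differed by no more than sampling noise (chi-square per degree of freedom 0.99 to 1.02).

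Genes of this size are mostly intron. RNA polymerase II has to cross the whole span to make 1 transcript, and the finished messenger RNA keeps only the small exonic part. Very long genes often encode adhesion, synaptic, signaling and cytoskeletal proteins, some lie in common fragile sites where replication and transcription meet, and topoisomerases and elongation factors are known to be needed for their full transcription. In T-lineage cells they include regulators such as RUNX1, BACH2 and RORA.

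The members had a median span of 415 kb, against 30.9 kb over the 11754 expressed genes that matched 1 locus in GENCODE release 29. Their median exonic length of 9.61 kb was closer to the 5.08 kb of all expressed genes, so that exons made up a median of 2.11% of a member's span and 16.8% of that of an expressed gene. Of the 324, 307 were protein coding and 17 were not. The median member collected 823 reads over the 4 libraries and the median expressed gene 1240. The members together took 1.62% of reads in the CUTLL1 control (95% Wilson interval 1.613 to 1.631%) and 1.69% after PKF118-310 (1.678 to 1.696%), and 1.79% in the TIB153 control (1.785 to 1.804%) and 1.63% after PKF118-310 (1.621 to 1.638%). The share was thus lower in treated than in control TIB153 and slightly higher in treated than in control CUTLL1, by more than counting error but with no replicate to set against it.

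RefSeq gave a promoter for 262 of the 324 members, on assembly GRCh38.p14. Those of 6 members are shown because these genes were among those with the smallest p for a change across both lines (3 that fell, then 3 that rose) and their RefSeq start lay within 200 bases of the 5′ end of the gene in the files. Each run ends just before the more upstream of the 2 starts, reads 5′ to 3′ in the direction of the gene, and has its CpG dinucleotides in capitals. DOCK2 lies on the plus strand at chr5:169637025-169637246, POLA1 on the plus strand at chrX:24693668-24693917 and ACACA on the minus strand at chr17:37406837-37407086. BACH2 (chr6:90296909-90297093), JMJD1C (chr10:63521891-63522140) and MED13L (chr12:116277720-116277943) lie on the minus strand.
DOCK2: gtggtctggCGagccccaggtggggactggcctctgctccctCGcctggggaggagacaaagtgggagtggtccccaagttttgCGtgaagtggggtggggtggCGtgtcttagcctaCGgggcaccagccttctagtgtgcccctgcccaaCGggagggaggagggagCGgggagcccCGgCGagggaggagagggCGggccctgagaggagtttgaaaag
POLA1: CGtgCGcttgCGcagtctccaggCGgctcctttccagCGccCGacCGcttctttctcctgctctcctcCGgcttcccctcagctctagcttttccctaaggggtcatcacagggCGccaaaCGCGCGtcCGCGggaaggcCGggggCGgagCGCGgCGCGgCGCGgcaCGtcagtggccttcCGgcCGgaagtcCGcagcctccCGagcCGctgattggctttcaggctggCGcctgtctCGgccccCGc
ACACA: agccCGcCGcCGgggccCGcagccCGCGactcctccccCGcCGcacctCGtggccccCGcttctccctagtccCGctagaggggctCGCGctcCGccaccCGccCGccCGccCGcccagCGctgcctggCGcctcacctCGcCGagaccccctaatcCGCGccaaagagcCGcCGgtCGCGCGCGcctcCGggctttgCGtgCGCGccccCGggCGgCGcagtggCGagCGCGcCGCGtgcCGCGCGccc
BACH2: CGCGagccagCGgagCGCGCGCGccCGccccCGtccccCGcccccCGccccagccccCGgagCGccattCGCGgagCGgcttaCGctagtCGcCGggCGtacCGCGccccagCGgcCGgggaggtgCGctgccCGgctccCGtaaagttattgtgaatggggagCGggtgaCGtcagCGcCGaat
JMJD1C: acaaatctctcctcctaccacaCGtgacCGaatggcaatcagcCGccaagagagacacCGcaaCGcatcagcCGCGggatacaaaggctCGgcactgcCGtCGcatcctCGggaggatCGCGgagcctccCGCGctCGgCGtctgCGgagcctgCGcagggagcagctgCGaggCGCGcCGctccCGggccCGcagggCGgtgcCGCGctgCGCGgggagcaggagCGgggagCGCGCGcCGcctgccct
MED13L: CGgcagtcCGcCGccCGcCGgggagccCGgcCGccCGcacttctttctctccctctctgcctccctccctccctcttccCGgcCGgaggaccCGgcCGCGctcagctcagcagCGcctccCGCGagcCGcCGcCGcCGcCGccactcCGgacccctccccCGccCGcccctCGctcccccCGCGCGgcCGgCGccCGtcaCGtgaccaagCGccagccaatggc
The windows were mostly dense in CpG, with 31 in POLA1, 45 in ACACA, 31 in BACH2, 35 in JMJD1C and 33 in MED13L, while DOCK2, a gene of blood cells, had 10. Over the 250 bases before each start, the members had a median of 22 CpG and 66.4% G and C, against 21 and 65.2% over 8912 expressed genes. The form CTTTGAT of the TCF/LEF core, searched on both strands, occurred in 4 of the 262 member promoters (1.53%) and in 1.29% of all 8912. Other forms of the core, such as CTTTGAA, were not searched. The AP-1 site TGACTCA was found in 5 (1.91%) against 2.1%, and the TATA box TATAAA in 12 (4.58%) against 4.63%. None of these 3 exact strings was in any of the 6 printed windows.

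In TIB153, long genes stood lower after PKF118-310. A log2 ratio of treated over control CPM (reads scaled to the size of the library by TMM, with 0.5 reads added to each count) was below 0 for 216 of 324 members (66.7%) and for 50.6% of all 11796 genes, and the members' median was -0.21 with quartiles at -0.59 and 0.14, against a median of -0.01 over all. In RNA from a whole culture, a lower level in each cell and fewer cells with the transcript cannot be told apart. A gene was called at least 2-fold changed in a line when its ratio passed that limit and its 95% exact binomial interval, which covers counting error only, excluded no change. By this rule 22 members were lower in TIB153, which is 6.79% of the members beside 1.91% of all genes, and 9 were higher, 2.78% beside 4.46%. In 37 members the reads outside their highest library came to under 80, so that library alone admitted them. They include FRY, ANO5 and SNTG2 among the 22 and GPC5, PLCH1, CCDC7, MCTP1 and TRPS1 among the 9. Where that library was of TIB153, the call there in part follows from the count limit. For MCTP1 and TRPS1 it was treated CUTLL1. The counts were not redone without these genes. Dropping the 2-fold limit left 142 members (43.8%) with an interval wholly below no change beside 30.2% of all genes, and 52 (16%) with one wholly above it beside 27.9%.

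In CUTLL1 the middle of the members hardly moved, with a median of -0.07 (quartiles -0.39 and 0.32) against 0.00 over all genes and 179 of 324 below 0. The tail of low genes was nevertheless present there as well: 19 members (5.86%) were at least 2-fold lower beside 1.81% of all genes, and 13 (4.01%) were at least 2-fold higher beside 4.05%. Most of the 19 were weakly expressed, with 15 in the lowest tercile of mean CPM. There 10.2% of members and 6.5% of genes of 100 to 300 kb were at least 2-fold lower. The shares were 1.9% and 1.45% in the middle tercile, and 2.78% and 0.626% in the highest. CALN1, HMCN1 and NELL2 among the 19 and SHISA9 among the 13 met the count limit only through their highest library. Intervals wholly below no change were found for 89 members (27.5%, beside 25.6% of all genes) and wholly above it for 84 (25.9%, beside 25.4%). Members were below 0 in both lines 143 times and above 0 in both 72 times. A member with 0 reads in both libraries of a line takes a ratio just below 0 from library size alone. DPP10 and EPHA3 in CUTLL1 and NELL2 in TIB153 are of this kind, and the counts below 0 include them. Whether the lines differ was not tested, because a fit with line, treatment and their interaction uses up all 4 libraries.

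The ratio moved with span in TIB153. From the shortest to the longest class the median was 0.12 for 2498 genes under 10 kb, 0.05 for 3272 genes of 10 to 30 kb, -0.06 for 3922 of 30 to 100 kb, -0.12 for 1738 of 100 to 300 kb and -0.21 for the members. In CUTLL1 the same classes had medians of -0.03, 0.01, 0.01, 0.03 and -0.07, without a steady order. Across the 11754 matched genes, which share the same libraries, Spearman's rho of span with the ratio was -0.17 in TIB153 and 0.03 in CUTLL1. Within the members alone it was -0.05 in TIB153 and -0.14 in CUTLL1, and the 59 members over 600 kb had a median of -0.14 in TIB153 and -0.21 in CUTLL1.

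**Figure D1:**
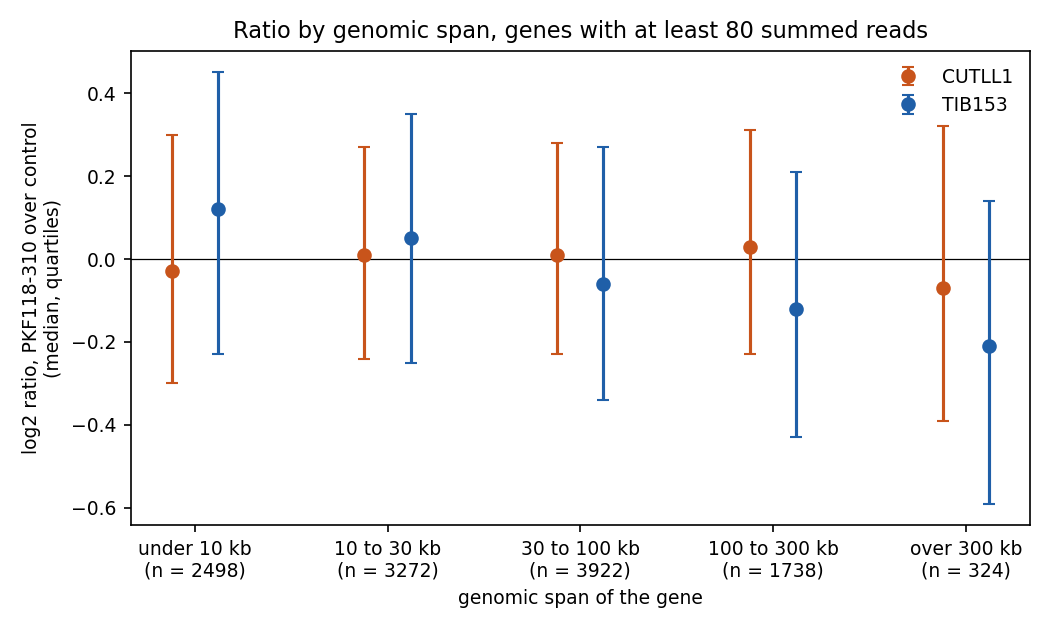
Log2 ratio of PKF118-310 over control CPM (vertical axis) by genomic span class (horizontal axis) for genes with at least 80 summed reads, in CUTLL1 (orange) and TIB153 (blue). Points are medians over genes and bars run between the quartiles of genes, and the TIB153 points step down from 0.12 under 10 kb to -0.21 over 300 kb while the CUTLL1 points stay between -0.07 and 0.03.

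Low counts widen a ratio, and members were more often weakly expressed than other genes, with 147 of them in the lowest tercile of mean CPM and 72 in the highest. Within each of these classes of expression, the members had the lowest median of the 5 span classes in TIB153. In the lowest tercile the median was 0.22 under 10 kb and -0.16 in the members, in the middle tercile 0.08 and -0.25, and in the highest tercile 0.02 and -0.15. The genes of 100 to 300 kb lay nearer to the members, with medians of -0.10, -0.12 and -0.13 in the same order. The middle tercile did not step down throughout, since its genes of 10 to 30 kb stood at 0.09. In the highest tercile, where the median member had 3550 summed reads, 4 of 72 members (5.56%) were at least 2-fold lower in TIB153. This stood beside 1.56% of the genes of 100 to 300 kb and none of the 597 genes under 10 kb. In the middle tercile the members did not stand out by this count, with 4 of 105 (3.81%) beside 3.7% of the genes of 100 to 300 kb. The shares in the lowest tercile were 9.52% and 5.45%. Among genes in the longest tercile of exonic length, the medians were 0.24 for 60 genes under 10 kb and -0.21 for 256 members.

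The library of treated TIB153 also differed in other measures. It had the largest share of mitochondrial reads, 5.06% against 3.78 to 4.18% in the other 3, and the most rows with a read, 22120 against 19674 to 21134. Their part in the long-gene values was not tested. All 11 T-lineage markers (among them CD3D, CD7, LCK, PTCRA and RAG1) had over 3 reads in every library and a summed level of 1730 to 2350 CPM, lowest in treated CUTLL1. B-cell markers summed to 10.7 to 106 CPM through 1 gene of 4, fibroblast markers to 2.86 to 5.82 CPM, and the myeloid, erythroid and epithelial markers to under 1 CPM in each library.

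Across both lines together, edgeR's quasi-likelihood test with line as a block (1 residual degree of freedom, Benjamini-Hochberg over all 11796 genes) called 47 members. Of these, 30 fell, which is 9.26% of the members beside 6.22% of all genes, and 17 rose, 5.25% beside 5.95%, so the share that rose was near the background. The DESeq2 Wald test on the same design called fewer, 11 falling members (1.94% of all genes fell by it) and 6 rising ones (1.85% of all genes rose). It gave no adjusted p for 42 members with few reads. Both tests called the falls of ITPR2, FOCAD, DOCK2, POLA1, STAU2, TBC1D5, ACACA, EIF4G3, LRBA, PRKCA and GALNT18 and the rises of BACH2, JMJD1C, MCTP1, MED13L, RORA and PLCL1, and the remaining calls were by edgeR alone. At an unadjusted edgeR p under 0.05, 72 members were lower (22.2%, beside 15.1% of all genes) and 33 higher (10.2%, beside 14.7%). FRY and CALN1 among the falls and MCTP1, SHISA9 and TRPS1 among the rises reached 80 summed reads only through the library where they were highest, and without them 28 fell and 14 rose. The 1 residual degree of freedom of this fit is the difference between the lines in their response, moderated by a prior drawn from all genes. A gene that changed in 1 line alone thus has a large residual. Nothing in the labels says that the 4 libraries came from separate cultures, so technical spread may be part of that residual.

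**Figure D2:**
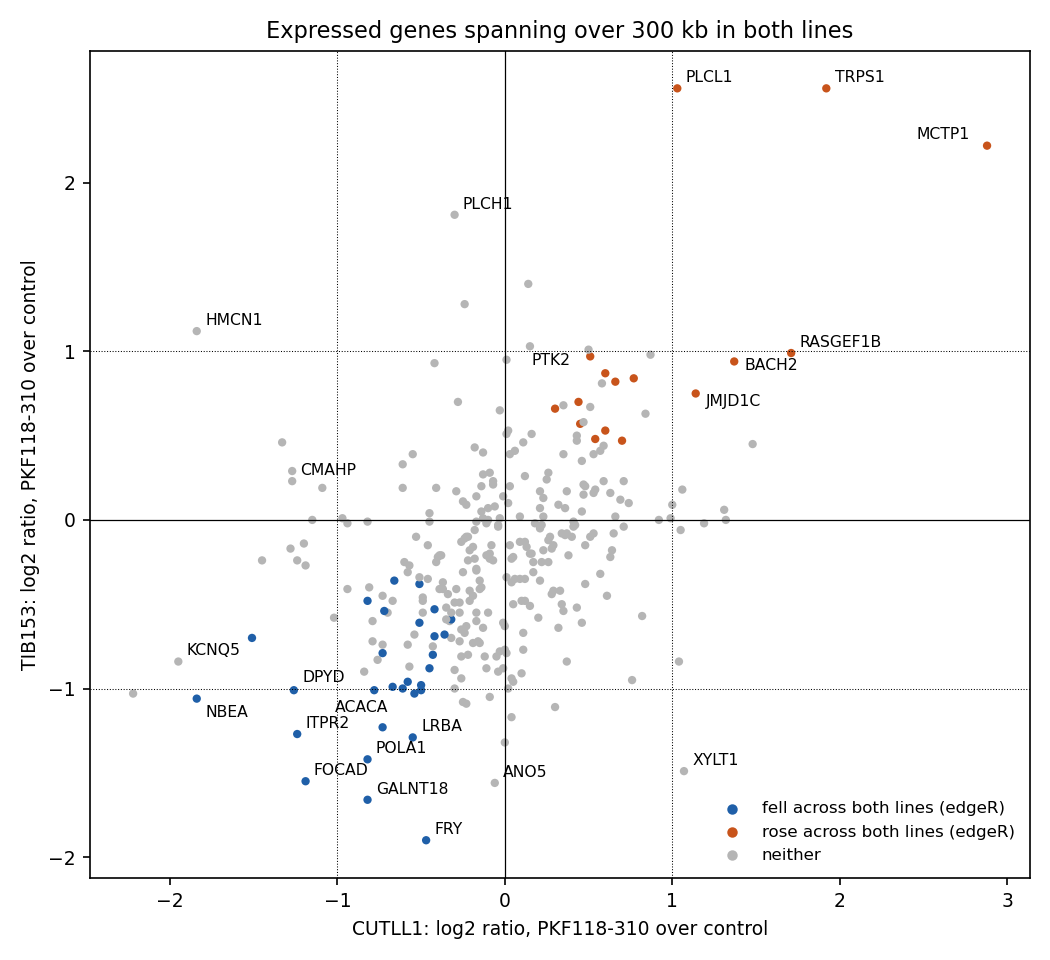
Treated-to-control log2 ratio in CUTLL1 (horizontal axis) and TIB153 (vertical axis) for the 317 members with reads in every library, 1 point a gene (CALN1 and SHISA9, with a library at 0, are not drawn). Blue points fell and orange points rose across both lines by edgeR, dotted lines mark 2-fold, and XYLT1, at -1.49 in TIB153 and 1.07 in CUTLL1, lies low on the right with a CUTLL1 interval that includes no change.

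The calcium channel ITPR2, the type 2 inositol trisphosphate receptor that releases calcium from the endoplasmic reticulum, gave the smallest p of the members. It is encoded at chr12:26336515-26833198 (hg38), and its level was 196 CPM in the CUTLL1 control and 83.0 after PKF118-310, and 124 and 51.3 CPM in TIB153. The treated library was thus lower in both lines by nearly the same ratio, -1.24 (counting interval -1.38 to -1.11) in CUTLL1 and -1.27 (-1.44 to -1.11) in TIB153, and the fall across lines was -1.26 ± 0.12 (SE, edgeR adjusted p = 0.000876). FOCAD, which encodes the focal adhesion protein focadhesin at chr9:20658309-20995955, stood at 60.5 and 26.5 CPM in control and treated CUTLL1 and at 53.2 and 18.1 CPM in TIB153. Its fall was -1.37 ± 0.17 (edgeR adjusted p = 0.0031).

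DPYD and NBEA completed the 4 members that were at least 2-fold lower in each line. DPYD, the first enzyme of pyrimidine breakdown and a gene of 917.3 kb in a common fragile site, had 15.3 and 6.35 CPM in CUTLL1 and 27.0 and 13.4 CPM in TIB153 (-1.13 ± 0.24, edgeR adjusted p = 0.0198, DESeq2 adjusted p = 0.0811). NBEA, encoding the membrane-traffic protein neurobeachin, rested on fewer reads, 51 and 15 in CUTLL1 and 125 and 64 in TIB153 (-1.37 ± 0.33, edgeR adjusted p = 0.0278, DESeq2 adjusted p = 0.128). No member was called lower in 1 line and higher in the other.

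Several large falls in TIB153 had a smaller counterpart in CUTLL1. POLA1, the catalytic subunit of the DNA polymerase that starts each new strand, read 94.6 CPM in the TIB153 control and 35.2 after PKF118-310, 37.2% of control, and 81.3 and 46.0 CPM in CUTLL1 (-1.12 ± 0.17, edgeR adjusted p = 0.00784). GALNT18, a Golgi enzyme of the family that starts O-linked glycosylation, had 157 and 53 reads in TIB153 and 216 and 131 in CUTLL1 (-1.21 ± 0.26, edgeR adjusted p = 0.0208). LRBA, a BEACH-family protein that protects CTLA4 from lysosomal breakdown, dropped from 125 to 51.0 CPM in TIB153 and from 64.1 to 43.7 CPM in CUTLL1 (edgeR adjusted p = 0.0198). All 3 genes had counting intervals below no change in both lines.

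ACACA, STK3, FER and SCFD2 were also at least 2-fold lower in TIB153. ACACA, the acetyl-CoA carboxylase that makes malonyl-CoA for fatty acid synthesis, had 1567 reads in the TIB153 control and 822 after treatment, and 1575 and 1163 in CUTLL1. Its ratio was -1.03 (-1.16 to -0.91) in TIB153 and -0.54 (-0.65 to -0.43) in CUTLL1. STK3, a kinase of the Hippo pathway, had 239 and 109 reads in TIB153 and 179 and 116 in CUTLL1 (edgeR adjusted p = 0.023). The tyrosine kinase FER had 324 and 173 reads against 153 and 116 (edgeR adjusted p = 0.0393). SCFD2, a protein of the Sec1 family of vesicle-fusion factors, had 271 and 144 against 168 and 105 (edgeR adjusted p = 0.0232). In each of these 4 genes the counting interval lay below no change in both lines. DESeq2 gave adjusted p-values of 0.0967 for STK3, 0.2 for FER and 0.117 for SCFD2.

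A further group was lower in TIB153 while CUTLL1 gave a ratio whose interval included no change, and none of it passed the test across lines except FRY. FRY, a microtubule-binding protein, went from 88 reads to 25 in TIB153, the lowest ratio of all called members there (-1.90, -2.62 to -1.26), but had only 4 and 3 reads in CUTLL1, so its fall across lines (edgeR adjusted p = 0.0415) came from TIB153. SLC4A4, a sodium bicarbonate cotransporter, had 185 and 79 reads in TIB153 and 79 and 85 in CUTLL1. MYO1D, an unconventional myosin, had 172 and 82 against 82 and 91. PPP3CA, the catalytic subunit of the phosphatase calcineurin that activates NFAT in T cells, had 179 and 89 against 155 and 205. In CUTLL1, then, neither SLC4A4, MYO1D nor PPP3CA was lower after treatment beyond counting error.

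ATG10, an E2-like enzyme of autophagosome formation, had 166 and 84 reads in TIB153 and 86 and 78 in CUTLL1. PCCA, a subunit of mitochondrial propionyl-CoA carboxylase, had 112 and 58 against 83 and 84, and IMMP2L, a peptidase of the mitochondrial inner membrane, had 74 and 37 against 48 and 44. ANO5, an anoctamin of intracellular membranes, had 53 and 19 against 28 and 29. SNTG2, a syntrophin, had 65 and 34 reads in TIB153 and only 6 and 1 in CUTLL1. These low totals leave the CUTLL1 ratios wide, from -0.86 to 0.39 for IMMP2L and from -8.21 to 0.35 for SNTG2.

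XYLT1, the xylosyltransferase that begins glycosaminoglycan chains, had 197 reads in the TIB153 control and 75 after PKF118-310, a ratio of -1.49 (-1.90 to -1.11). In CUTLL1 it had 9 and 21 reads, a ratio of 1.07 whose interval (-0.07 to 2.43) included no change.

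**Figure D3:**
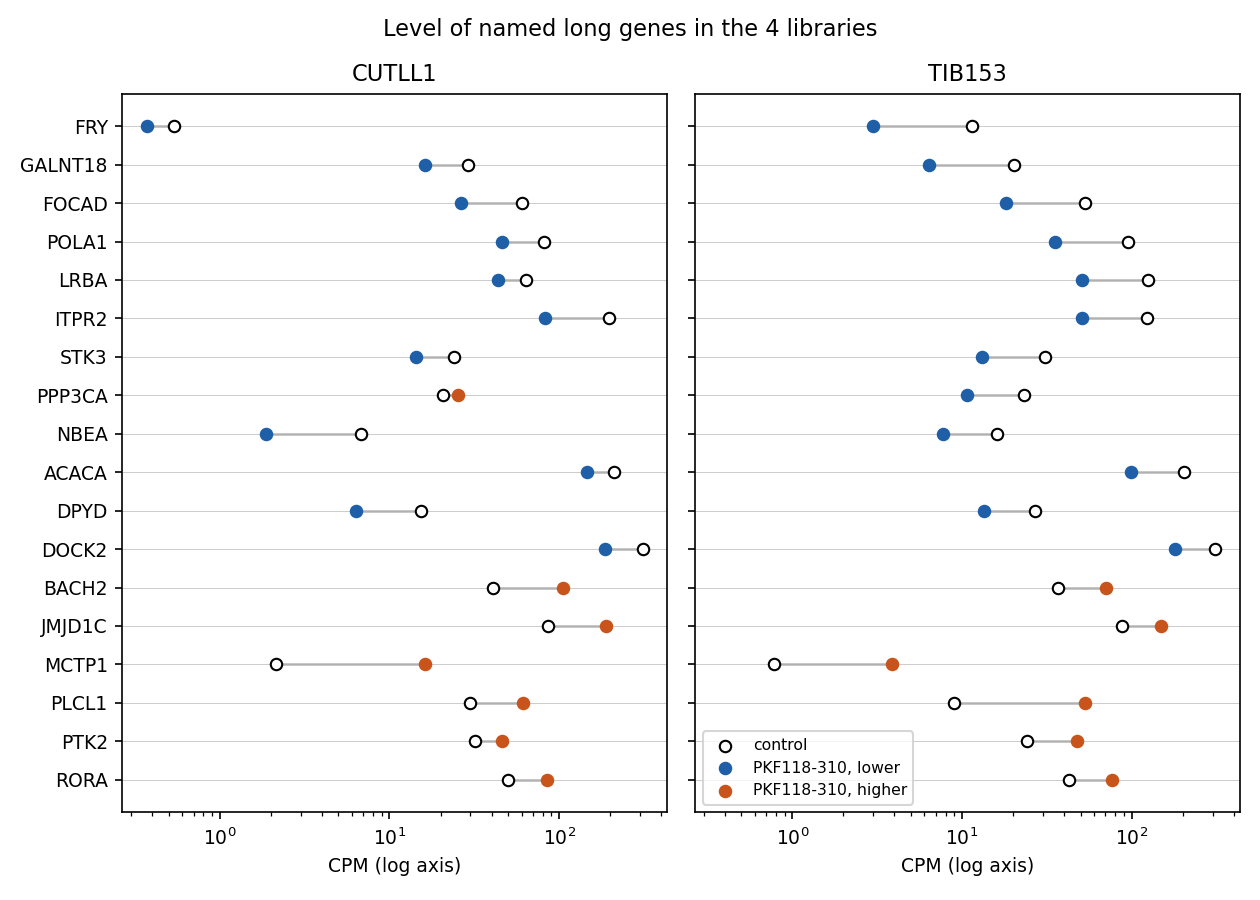
Level in CPM (horizontal log axis) of 18 named long genes in CUTLL1 (left) and TIB153 (right). Open circles are the control library, filled circles the PKF118-310 library (blue lower, orange higher), 1 library each, and 11 of the 12 upper genes have their treated circle to the left of control in both lines, PPP3CA being to the right in CUTLL1.

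Other falls were called across lines without reaching 2-fold in either line. DOCK2, the guanine nucleotide exchange factor that activates RAC in lymphocytes, had 2315 and 1503 reads in CUTLL1 and 2394 and 1487 in TIB153 (-0.76 ± 0.12, edgeR adjusted p = 0.00733). STAU2, a double-stranded RNA binding protein, had 702 and 474 reads in CUTLL1 and 803 and 433 in TIB153 (edgeR adjusted p = 0.00958). TBC1D5, a GTPase-activating protein for RAB7 that spans 1287.7 kb, had 1050 and 753 against 820 and 451 (edgeR adjusted p = 0.0119). EIF4G3, a scaffold of translation initiation, had 895 and 704 against 1114 and 650, and TRAPPC9, a subunit of a tethering complex of the secretory pathway, had 350 and 246 against 461 and 248 (edgeR adjusted p = 0.0198 and 0.0189, DESeq2 adjusted p = 0.0655 for the second). In each of these 5 genes the treated library was lower than its control in both lines.

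The falling members also spread over several groups of function. Of the 324, 221 were placed in 1 or more of 11 lists and 103 in none. Beside the lists stand the 6.22% of all genes that fell and the 5.95% that rose by edgeR. Of the members themselves 9.26% fell and 5.25% rose. Among the 72 members in the highest tercile of mean CPM, 18.1% fell and 9.72% rose, and the lists were not matched for level. They were also drawn up with earlier results of these data known, so the shares are a description. In membrane traffic, autophagy and organelle proteins, 26 members had a median of -0.45 in TIB153 and -0.22 in CUTLL1. Of these, 5 fell (19.2%), namely LRBA, TRAPPC9, SCFD2, NBEA and EXOC4, and 2 rose (7.69%, near the background). In RNA processing, DNA repair and chromosome maintenance, 19 members had medians of -0.34 and -0.32, and this was the list whose CUTLL1 median lay farthest below 0. Here 5 fell (26.3%), namely POLA1, STAU2, EIF4G3, SPIDR and MSI2, and none rose. SPIDR, a scaffold of homologous recombination, had 459 and 250 reads in TIB153 and 432 and 329 in CUTLL1. EXOC4 and MSI2 are outside the rule for named genes and were chosen after their values were seen.

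Calcium, cyclic nucleotide, channel and transporter genes (19 members) had medians of -0.46 in TIB153 and -0.09 in CUTLL1. Of these, 2 fell, ITPR2 and CALN1 (10.5%, beside 6.22% of all genes and 9.26% of the members). CALN1, a calmodulin-like protein, had 72 and 7 reads in CUTLL1 and 0 and 1 in TIB153, so its call rests on CUTLL1 and it is a member only through the control library of that line. Without it, 29 members fell and 1 of this list did. Ubiquitin pathway genes (10 members) had medians of -0.55 and 0.00, with 9 of 10 below 0 in TIB153. Yet 1 (10%, near the 9.26% of the members) passed the test. This was BTBD11, lower from 104 to 39 reads in CUTLL1 and from 269 to 177 in TIB153. FBXL17 and BTBD9, adaptors of ubiquitin ligases, had 268 and 157, and 141 and 99 reads in TIB153. In CUTLL1 they had 109 and 79, and 64 and 95 reads, a ratio for BTBD9 of 0.46 whose interval included no change, and their edgeR adjusted p-values were 0.0527 and 0.848.

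Cytoskeleton, motor, centrosome and cilium genes (29 members) had medians of -0.37 in TIB153 and 0.04 in CUTLL1. There was 1 fall, FRY, and 1 rise (3.45% each, beside 6.22% and 5.95% of all genes). CNTLN, a centriolar linker, had 105 and 63 reads in TIB153 and 98 and 62 in CUTLL1 (edgeR adjusted p = 0.0758). Common fragile site genes (16 members) had medians of -0.43 and -0.23. Of these, 4 fell (25%), namely DPYD, TBC1D5, NBEA and EXOC4, while RORA rose (6.25%). Kinases, phosphatases and lipid signaling enzymes (24 members) had medians of -0.14 and -0.06, with 4 falls (16.7%) and 1 rise (4.17%), PLCL1.

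GTPase regulators (25 members) had medians of -0.18 in TIB153 and 0.12 in CUTLL1. Of these, 2 fell, DOCK2 and TBC1D5 (8%, near the 6.22% of all genes). SRGAP3, a GTPase-activating protein, had 109 and 65 reads in TIB153 and 58 and 81 in CUTLL1 (edgeR adjusted p = 0.649). Adhesion, polarity and synaptic proteins (25 members) had medians of -0.10 and 0.04, none fell, and PTK2 rose (4%, beside 5.95% of all genes). FRMD5 had 42 and 24 reads in TIB153 and 32 and 19 in CUTLL1 (edgeR adjusted p = 0.135). T cell signaling and leukaemia genes (26 members) had medians of -0.04 and 0.01, with 5 falls (19.2%) and 3 rises (11.5%). The 103 genes in no list had -0.23 and -0.13, with 7 falls (6.8%, near the background) and 4 rises (3.88%). The lists overlap, 41 members being in more than 1.

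Transcription and chromatin factors were the list with a median above 0 in both lines. Its 44 members had a median of 0.11 in TIB153 and 0.21 in CUTLL1. By edgeR 8 rose (18.2%, beside 5.95% of all genes) and 2 fell (4.55%, beside 6.22%). TRPS1, among the 8, is a member only through the treated CUTLL1 library. In TIB153, 18 of the 44 were below 0 and 0 were at least 2-fold lower. Under the other scalings and count limits tried, the medians of the list ran from 0.05 to 0.15 in TIB153 and from 0.18 to 0.25 in CUTLL1.

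**Figure D4:**
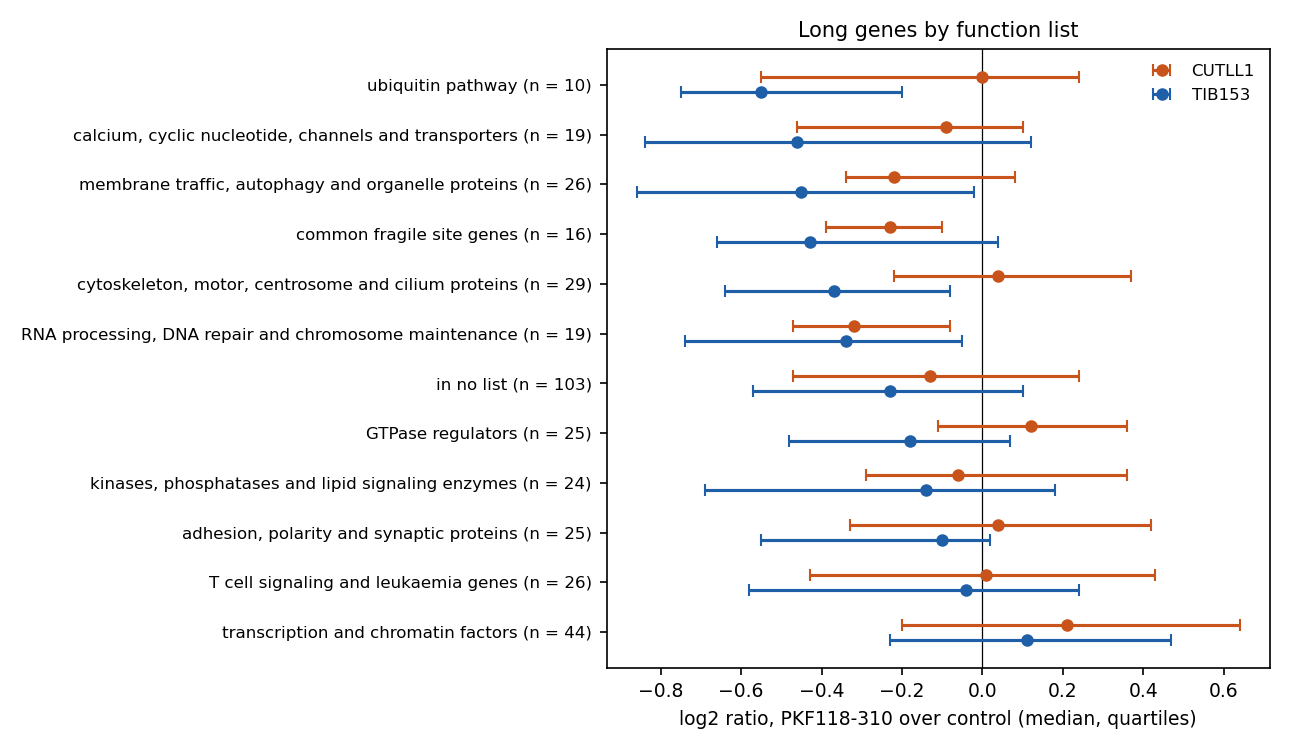
Median log2 ratio of PKF118-310 over control (horizontal axis) of members in each function list, with bars between the quartiles of genes, in CUTLL1 (orange) and TIB153 (blue). TIB153 medians run from -0.55 in the ubiquitin pathway to 0.11 in transcription and chromatin factors.

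BACH2, a transcriptional repressor of lymphocyte differentiation at chr6:89926529-90296908, led the rises. It had 306 reads in the CUTLL1 control and 853 after PKF118-310, and 285 and 588 in TIB153 (1.16 ± 0.16, edgeR adjusted p = 0.00477). JMJD1C, a JmjC-domain histone demethylase homologue, had 645 and 1525 reads in CUTLL1 and 679 and 1228 in TIB153 (0.94 ± 0.13, edgeR adjusted p = 0.00553). Both were higher after treatment in both lines, with intervals above no change.

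The Mediator kinase-module subunit MED13L rose from 1722 to 2918 reads in CUTLL1 and from 1157 to 2199 in TIB153 (0.74 ± 0.12, edgeR adjusted p = 0.00838). MED12L, a paralogue of another subunit of that module, had 347 and 608 reads against 709 and 1057 (edgeR adjusted p = 0.0246), but over 25% of its exonic bases are overlapped by exons on the opposite strand and no source used here gives the strand setting of HTSeq, so its reads cannot be told from those of its neighbours. The nuclear receptor RORA had 371 and 682 reads in CUTLL1 and 329 and 633 in TIB153 (edgeR adjusted p = 0.0104). RUNX2, a Runt-domain factor, had 297 and 483 against 135 and 265 (edgeR adjusted p = 0.0263). The zinc-finger repressor TRPS1 had 22 and 91 reads in CUTLL1 but only 1 and 9 in TIB153 (edgeR adjusted p = 0.0206). Its direction in TIB153 therefore rests on 10 reads.

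Outside the nucleus, MCTP1, a calcium-binding C2-domain protein of membranes, had 16 and 130 reads in CUTLL1 and 6 and 32 in TIB153, the steepest of the rises seen in both lines (2.70 ± 0.39, edgeR adjusted p = 0.00554). PLCL1, a phospholipase C-like protein without catalytic activity, had 69 and 440 reads in TIB153, 594% of control, and 222 and 490 in CUTLL1 (1.72 ± 0.37, edgeR adjusted p = 0.0471). SSH2, a phosphatase that activates cofilin, and PTK2, the focal adhesion kinase, rose by less (0.56 ± 0.12 and 0.74 ± 0.18, edgeR adjusted p = 0.0201 and 0.0289). MCTP1, PLCL1 and TRPS1 were the 3 members at least 2-fold higher in each line.

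Other high members in TIB153 were not matched in CUTLL1. PLCH1, a phospholipase C, had 18 and 69 reads in TIB153 and 32 and 28 in CUTLL1. CCDC7 had 18 and 52 against 21 and 25, KCNN2, a small-conductance calcium-activated potassium channel, 34 and 75 against 76 and 91, and WDPCP, a ciliogenesis factor, 40 and 87 against 42 and 64. The glypican GPC5 had 45 and 109 reads in TIB153 and 1 and 0 in CUTLL1, so it could be read in TIB153 alone. None of these 5 passed the test across lines.

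Other members were called in CUTLL1 and not in TIB153, which does not make the change particular to CUTLL1. KCNQ5, for example, was lower in TIB153 too (-0.84, -1.30 to -0.40). HMCN1, an extracellular matrix protein, had 114 and 34 reads there against 1 and 3 in TIB153, and NELL2, a secreted glycoprotein, 60 and 27 against 0 and 0. The potassium channel gene KCNQ5 had 30 and 8 reads in CUTLL1 and 114 and 68 in TIB153 (edgeR adjusted p = 0.0586), the cadherin CDH4 48 and 21 against 227 and 216, and the ubiquitin-conjugating enzyme UBE2E2 117 and 55 against 454 and 404. The pseudogene CMAHP, whose parent enzyme makes a sialic acid that humans lack, had 754 and 336 reads in CUTLL1 and 529 and 668 in TIB153, and the long noncoding RNA CCDC26 had 202 and 90 against 47 and 62. For HMCN1 and NELL2 the TIB153 libraries held too few reads to show a direction.

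On the high side in CUTLL1, the RAC activator DOCK4 had 71 and 192 reads against 91 and 98 in TIB153, the proprotein convertase PCSK5 had 44 and 118 against 74 and 83, the ribosomal S6 kinase RPS6KA2 had 52 and 128 against 120 and 127, and the transcriptional regulator ATXN1 had 54 and 122 against 95 and 116. RASGEF1B, a RAS-family exchange factor, had 17 and 61 reads in CUTLL1 and 25 and 54 in TIB153, and rose (1.35 ± 0.36, edgeR adjusted p = 0.0391). SHISA9 had 19 and 73 reads in CUTLL1 and 0 and 2 in TIB153, so its rise (edgeR adjusted p = 0.0396) came from CUTLL1 alone. The membrane scaffold ANK2, called in neither line, had 31 and 57 reads in CUTLL1 and 4 and 2 in TIB153.

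The 5 members that drew the most reads stayed within 2-fold in both lines. MACF1, a cytoskeletal crosslinker with 40.7 kb of exons, had 5449 and 7158 reads in CUTLL1 and 6309 and 5065 in TIB153, a ratio of 0.29 (0.24 to 0.34) in the first and -0.42 (-0.47 to -0.37) in the second. RUNX1, a master factor of blood formation spanning 1216.9 kb, had 4215 and 6274 reads in CUTLL1 and 4233 and 5055 in TIB153, and did not pass the test across lines (edgeR adjusted p = 0.144). The cohesin subunit STAG2 had 3231 and 4027 against 2867 and 3242, and the E protein TCF12, a partner of T-ALL transcription factors, had 2760 and 3222 against 3210 and 4121. GSE1, a coregulator, was the lower one of the 5, with 3634 and 2849 against 3397 and 2859 (-0.40 ± 0.12, edgeR adjusted p = 0.0526).

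Among the members reaching 5 CPM, the longest were CSMD1 at 2059.6 kb, PDE4D at 1553.1 kb and GPC5 at 1475.1 kb. CSMD1 had 93 and 69 reads in CUTLL1 and 3 and 3 in TIB153. PDE4D, a cyclic AMP phosphodiesterase, had 40 and 32 against 11 and 23, with an interval in TIB153 of -0.13 to 2.15. The 17 noncoding members also stood apart from the middle of the set in TIB153 with a median of 0.23 and 5 of 17 below 0. In CUTLL1 their median was 0.01, and 3 of 17 (17.6%) were at least 2-fold lower and 0 higher. Of these 17, 4 carry antisense names, and without the strand setting their reads cannot be told from those of the gene on the other strand.

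At the limits of the choice, MGMT (300.824 kb) and KMT2C (301.084 kb) lay just inside the span limit and had ratios of -0.55 and 0.23 in TIB153 and -0.49 and 0.71 in CUTLL1. PCBP3 (298.761 kb) and BAZ2B (297.714 kb) lay just outside it, at -0.13 and -0.17 in TIB153 and -1.18 and 0.41 in CUTLL1. CALN1 with 80 and KCNQ3 with 85 summed reads were the members just above the count limit, and MAML3 with 79 and CPED1 with 78 fell just short of it. Reads were unevenly shared between the lines for some members, with over 90% of them in TIB153 for 12 and in CUTLL1 for 8. In 4 members a CUTLL1 library and in 3 a TIB153 library held 0 reads, which allows up to 0.362 to 0.402 CPM, and setting these at the bound that 3 reads give left the medians at -0.07 and -0.21.

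Genes of the machinery that carries polymerase through long genes moved both ways. Of 45 expressed elongation and topoisomerase genes, 3 fell (6.67%, beside 6.22% of all genes) and 6 rose (13.3%, beside 5.95%) by edgeR, so the share that fell was near the background, with medians of -0.06 in TIB153 and 0.02 in CUTLL1. Among the genes of this list with wide changes were SUPT16H, a subunit of the FACT histone chaperone, and TOP2B, a DNA topoisomerase. SUPT16H had 4494 and 2302 reads in TIB153 and 5401 and 3621 in CUTLL1 (-0.87 ± 0.14, edgeR adjusted p = 0.00736). TOP2B had 3677 and 2176 reads in TIB153 and 4060 and 2957 in CUTLL1 (-0.71 ± 0.13, edgeR adjusted p = 0.0119). Both were lower in CUTLL1 as well (-0.68 and -0.56), where the members' median was -0.07. Among the 6 that rose were MEPCE (0.70 ± 0.13, edgeR adjusted p = 0.0147) and HEXIM1 (0.61 ± 0.13, edgeR adjusted p = 0.021). PCF11 (0.56 ± 0.12, edgeR adjusted p = 0.0212), CCNT1 (0.51 ± 0.12, edgeR adjusted p = 0.0234) and EAF1 (0.43 ± 0.12, edgeR adjusted p = 0.045) rose as well. MEPCE, HEXIM1, PCF11, CCNT1 and EAF1 are outside the rule for named genes and were chosen after their values were seen. The part of any of these genes in the long-gene values was not tested.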

How the data were processed

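RNA-seq libraries of CUTLL1 and TIB153, control and PKF118-310, were sequenced on 2 lanes each. The authors aligned reads to hg38 with HISAT2 and counted them with HTSeq, as the submitters' processing notes name these tools, and deposited whole-number counts per gene symbol for each lane. Their versions, the annotation and the strand setting were not given in the sources used here. The 2 deposited tables of the authors' own comparisons (DESeq2 fold changes and p-values) were not used.

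Lanes were summed per library. Loci, exons and gene types were taken from GENCODE release 29 by symbol, and promoters from RefSeq. The members, gene lists and tests were chosen with earlier results of these data known. Counts were scaled by TMM and tested with edgeR 4.0.16 (R 4.3.3; glmQLFit robust, line and treatment, prior degrees of freedom 9.2) over the 11796 genes with at least 80 summed reads. DESeq2 1.42.0 was an alternative. No line had a second library of a group, so values within a line carry only exact Clopper-Pearson 95% intervals for counting error. Named genes, with an official symbol and at least 5 CPM in a library of the line concerned, were the 20 lowest and 8 highest called in TIB153, the 10 lowest and 10 highest called in CUTLL1, the 10 falling and 10 rising with the smallest edgeR p, up to 4 per list with the widest mean ratio, the 5 with the most reads and the 3 longest, with the genes nearest the limits and the 3 genes of the elongation and topoisomerase list with the widest mean ratio, 1 of which is not reported here. The fit was tested on simulated data. Depth was 7609427 to 8140391 counts per library.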

Additional observations from a re-analysis of the deposited data

Results flagged for a closer look

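In 2 named members the lines went in opposite directions with both counting intervals clear of no change. The ratio of CMAHP in TIB153 minus that in CUTLL1 was 1.50 on the log2 scale, from 0.23 (0.07 to 0.40) and -1.27 (-1.46 to -1.08). The same difference for MACF1 was -0.71, from -0.42 (-0.47 to -0.37) and 0.29 (0.24 to 0.34). Neither difference was tested, since each group held 1 library. Members outside the named genes are not counted here. APBB2, chosen after its values were seen, is of the same kind, at -0.64 (-0.89 to -0.40) in TIB153 and 0.32 (0.04 to 0.60) in CUTLL1.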

How the results depend on the processing

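The reported fit already pairs control and treated libraries by line. No paired analysis was possible by replicate number because each group holds 1 library and the lanes are technical repeats of it, which also prevents leaving out a replicate. Of 114 counts and medians recomputed, 83 stayed within 1.5 times the reported count or within the SD between lanes of the reported median, 31 moved further, and 0 changed sign. The medians ran from -0.23 to -0.16 in TIB153 and from -0.18 to -0.01 in CUTLL1. Total-count scaling gave medians of -0.17 in TIB153 and -0.03 in CUTLL1, and lane 2 alone gave -0.04 in CUTLL1. With total-count scaling 16 members were lower and 12 higher in TIB153, in place of 22 and 9. The contrast widened on lane 1 alone, with 27 lower and 6 higher. A minimum of 1 summed read took in 750 long genes, of which 36 were lower and 21 higher in TIB153, 33 lower and 22 higher in CUTLL1 and 55 fell across lines, with medians of -0.16 and -0.14. A minimum of 400 left 226, with 10 lower and 2 higher in TIB153, 10 lower and 6 higher in CUTLL1 and a CUTLL1 median of -0.01. A span over 200 kb gave 725 genes, 43 lower and 17 higher in TIB153, 33 lower and 26 higher in CUTLL1, 71 that fell and 34 that rose, with a CUTLL1 median of -0.02. A span over 500 kb gave 97, 7 lower and 5 higher in TIB153, 7 lower and 4 higher in CUTLL1, 11 that fell and 5 that rose, with a CUTLL1 median of -0.18. In these 4 settings the number of genes changed by construction. The DESeq2 Wald test called 11 falls and 6 rises in place of edgeR's 30 and 17, and the cause was not tested. Of 710 ratios of named genes, 24 lost and 16 gained the 2-fold call, and 0 reversed beyond counting error: with total-count scaling ACACA, SNTG2, DPYD, SCFD2 and FER came just short of 2-fold in TIB153, and NBEA did so in CUTLL1 on lane 1 alone. The 2 added alternatives, chosen after seeing the data, kept the 3 joined rows or left out members overlapped on the opposite strand, and moved no count by over 1.5 times. With 1 library per group, precision is limited to counting error.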
